A study of Mus musculus with 31 samples.

Results

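The 9 genes described here encode cathepsins, the proteases of the lysosome (Ctsa, Ctsb, Ctsc, Ctsd, Ctsh, Ctsk, Ctsl, Ctss and Ctsz). They were taken by gene symbol from the 54532 genes of a count table of cultured microglia and by the same gene identifier from the 48795 genes of a count table of hippocampi. All 9 were found in both tables and all 9 passed the filters on low counts, which left 13675 genes for testing in microglia and 16453 in hippocampi. In hippocampi they were followed from non-transgenic (Ntg) mice to P301S mice. In microglia they were followed across WT and Cgas KO cells, each kept with vehicle or stimulated with fibrils of tau or with HT-DNA.

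The hippocampi came from 7 Ntg mice (3 females and 4 males, genotype P301S-) and 6 P301S mice (3 females and 3 males, genotype P301S+), aged 8 to 9 months, with 1 library per mouse. The P301S mice carry human tau with the P301S mutation under the mouse prion protein promoter, and the Cgas genotype of these mice was not stated for this experiment. The primary microglia were grown from the cortices of pups on postnatal days 1 to 3, in 6 groups of 3 libraries: WT with vehicle, WT with tau fibrils at 2 µg/ml, WT with HT-DNA at 1 µg/ml, and the same 3 conditions in Cgas KO cells, with stimulation for 6 h. HT-DNA is herring testis DNA, a ligand of the DNA sensor cGAS that Cgas encodes. The study calls the libraries of a group biologically independent samples. Whether each came from its own culture preparation, and whether WT and Cgas KO pups were littermates, is not given in the sources used here, so p-values in microglia measure the spread between these libraries.

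Between 25953296 and 35779977 reads per hippocampus and between 17037459 and 25174764 per microglial library were counted on genes. Mapt, the tau gene, had a mean of 572 CPM (counts in proportion to the library size after TMM scaling) in Ntg mice (range 519 to 642) and 997 in P301S mice (range 858 to 1125). Cgas averaged 23.2 CPM in WT microglia with vehicle, 34.0 with tau and 41.0 with HT-DNA, against 4.93, 7.11 and 3.96 in the corresponding Cgas KO groups, which is lower but not 0. Which bases of Cgas are deleted is not given in the sources used here. The labelled cell type was checked on 7 general markers of microglia and macrophages (Csf1r, Aif1, Itgam, Fcer1g, Tyrobp, Trem2 and Ptprc). Their summed level was between 4059.6 and 5046.8 CPM in the microglial libraries, while markers of T cells were at or near 0. Some other lists were not near 0. In WT microglia with vehicle, genes of border-associated macrophages summed to 189 to 210 CPM, endothelial genes to 87.3 to 98.8 CPM and oligodendrocyte genes to 84.4 to 95.2 CPM.

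Cathepsins are made as inactive precursors, carried to the lysosome largely by mannose 6-phosphate receptors, and activated by cleavage in its acid interior, where they degrade proteins that reach the organelle by endocytosis, phagocytosis or autophagy. Most are cysteine proteases, Ctsd is an aspartic protease and Ctsa a serine carboxypeptidase. In the brain, microglia are rich in several of them, and loss of Ctsd function causes a neuronal storage disease.

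On GRCm38 the 9 genes lie on chromosomes 2, 3, 7, 9, 13 and 14. The serine carboxypeptidase Ctsa, which also protects a lysosomal galactosidase and a neuraminidase, spans chr2:164832873-164841032 on the plus strand, and the carboxypeptidase Ctsz lies on the same chromosome at chr2:174427493-174439039 on the minus strand. The endopeptidases Ctsk (chr3:95499256-95509362) and Ctss (chr3:95526786-95556403) are neighbours on the plus strand. The dipeptidyl peptidase Ctsc spans chr7:88278085-88310888 (plus) and the aspartic protease Ctsd spans chr7:142375911-142388038 (minus). Ctsb, which cuts both within proteins and from their ends, lies at chr14:63122462-63145923 (plus), and the endopeptidase Ctsl at chr13:64359337-64370890 (minus). The aminopeptidase Ctsh, at chr9:90054152-90076089 (plus), shares its chromosome with Cgas (chr9:78430526-78443237, minus), 11.61 Mb away. In the annotation, exons of Ctsa overlap those of Pltp on the opposite strand over 495 bp and of Neurl2 over 324 bp, exons of Ctsb overlap Fdft1 over 774 bp, and exons of Ctsz overlap Nelfcd over 10 bp. Exons of Ctsd overlap those of Gm49369 on the same strand over 808 bp. Those of Ctsl overlap Gm47123 on the opposite strand over 1742 bp and Gm49230 on the same strand over 395 bp. Gm49369, Gm47123 and Gm49230 had 0 counts in microglia, as did Gm49369 in hippocampi. Whether the counting used strand was not given in the sources used here, so reads in these overlaps cannot be assigned with certainty. In microglia Pltp had at most 1483 counts in a library and Ctsa at least 27088, whereas in hippocampi Pltp reached 3036 counts and Ctsa had between 2784 and 5905. Fdft1 had at most 244 counts in microglia and 3078 in hippocampi, where Ctsb had at least 16855.

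Sequences are shown upstream of Ctsc and Ctss, 2 of the 3 genes whose responses to HT-DNA differed between WT and Cgas KO microglia. The other was Ctsd, whose window is described below without its sequence. Ctsc and Ctss were chosen after those values were seen. Each line gives the 250 bases before the start site in RefSeq (GRCm38.p6, plus strand), with matches to the searched motifs in capitals.
Ctsc, chr7:88277835-88278084: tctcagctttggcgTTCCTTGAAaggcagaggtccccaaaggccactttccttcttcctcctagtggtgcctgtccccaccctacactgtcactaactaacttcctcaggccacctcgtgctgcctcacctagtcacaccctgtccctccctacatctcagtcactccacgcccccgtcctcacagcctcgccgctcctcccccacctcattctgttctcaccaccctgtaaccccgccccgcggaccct
Ctss, chr3:95526536-95526785: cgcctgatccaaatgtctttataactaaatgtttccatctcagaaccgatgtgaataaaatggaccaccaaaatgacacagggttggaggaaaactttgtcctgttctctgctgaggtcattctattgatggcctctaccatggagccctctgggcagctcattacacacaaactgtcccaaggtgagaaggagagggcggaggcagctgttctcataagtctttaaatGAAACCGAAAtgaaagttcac
Windows were searched on both strands for 3 motifs: GAAA repeated after any 2 bases, the core of an interferon-stimulated response element, TTCNNNGAA, the palindrome of interferon-gamma-activated sites bound by STAT dimers, and CACGTG, an E-box of the kind bound by the lysosomal transcription factor TFEB. The capitals in the Ctss window mark its only response-element core, which begins at position -21 from the start site, and those in the Ctsc window mark its only activated-site palindrome, at position -236. Of all 32851 mouse promoter windows of this length, 2.98% held the first motif, 7.02% the second and 6.02% the E-box. RefSeq windows were found for 7 of the 9 genes (8 windows, 2 of them for Ctsa). The Ctsd window held 2 E-boxes (positions -245 and -98), the Ctsl window 1 (position -236) and the downstream Ctsa window 1 (position -12), and no motif searched was present in the Ctsk and Ctsz windows. Neither interferon motif was found in the Ctsd, Ctsl or Ctsa windows. A match describes letters only.

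Cathepsin transcripts were among the abundant RNAs of cultured microglia. Together the 9 genes took 4.16% ± 0.0873 (SD, n = 3) of the counted reads in WT microglia with vehicle and 4.47% ± 0.109 (SD, n = 3) in Cgas KO microglia with vehicle, against 0.112% ± 0.00949 (SD, n = 7) in Ntg hippocampi. Levels were compared between genes as CPM per kb of exon. The labels name a kit that reads the 3′ ends of transcripts, for which counts do not scale with length. Division by length then lowers genes with long exons in this order and raises those with short ones. The order without it is given at the end of the paragraph. In WT microglia with vehicle the order per kb was Ctsd (6399), Ctss (2784), Ctsb (2319), Ctsz (1291), Ctsl (442), Ctsa (331), Ctsh (111), Ctsc (85.2) and Ctsk (3.96), and no neighbours in this order overlapped. Ctsk, the collagen-degrading cathepsin of osteoclasts, was the least abundant member in both tissues. In Cgas KO microglia with vehicle Ctsd stood further above the others at 9587 CPM per kb, and Ctsa (331) and Ctsl (312) overlapped. In Ntg hippocampi the order per kb began with Ctsb (105), Ctsd (73.5) and Ctss (52.2), in P301S hippocampi with Ctss (168), Ctsd (162) and Ctsb (151), which overlapped one another. Ctsz (26.0 CPM per kb) and Ctsa (23.1) overlapped in Ntg mice, as did Ctsh (2.43) with Ctsc (2.09) and Ctsc with Ctsk (1.02), with Ctsl (12.7) between these 2 sets. Without division by length the order was another: it began with Ctsd (15043 CPM), Ctsb (14032) and Ctss (3781) in WT microglia with vehicle, with Ctsb (637 CPM), Ctsd (173) and Ctsa (109) in Ntg and with Ctsb (911 CPM), Ctsd (382) and Ctss (228) in P301S hippocampi.

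In P301S hippocampi 3 cathepsins were higher than in Ntg hippocampi: Ctss, the endopeptidase that trims the invariant chain of MHC class II, Ctsz and Ctsd. All 9 fitted differences were positive, with a median log2 fold change of 0.89 against 0.0013 over all genes tested. A gene was called changed at an adjusted p under 0.05 in edgeR's quasi-likelihood test. By this rule 1.51% of the genes tested differed, 1.39% being higher and 0.122% lower in P301S mice, and with a log2 fold change beyond 0.5 as well the share was 1.36%, with the same 3 members. The other 6 cathepsins missed the threshold, 5 of them with an unadjusted p under 0.05. In all, 8 members and 2612 of the 16453 genes tested had an unadjusted p under 0.05.

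Ctss had 62.2, 71.2 and 80.4 CPM at the lowest, median and highest Ntg mouse and 65.1, 252 and 373 CPM at the lowest, median and highest P301S mouse. P301S mice 29, 36 and 65 were high, mouse 77 stood between, mouse 63 was just above the Ntg range and mouse 43 lay inside it, so the groups overlapped. The log2 fold change was 1.69 ± 0.33 (SE, adjusted p = 0.0303), a 3.22-fold higher mean. Ctsz had 33.0, 36.1 and 44.6 CPM in Ntg mice and 39.9, 110 and 151 CPM in P301S mice (lowest, median, highest). Mice 43 and 63 lay within the Ntg range of Ctsz and the other 4 above it. Its log2 fold change was 1.42 ± 0.30 (SE, adjusted p = 0.0355). Ctsd had 145, 171 and 188 CPM in Ntg mice and 187, 389 and 597 CPM in P301S mice (lowest, median, highest), with a log2 fold change of 1.14 ± 0.26 (SE, adjusted p = 0.0454). For Ctsd only mouse 43 stayed within the Ntg range, and mouse 63, at 192 CPM, was just above it.

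**Figure D1:**
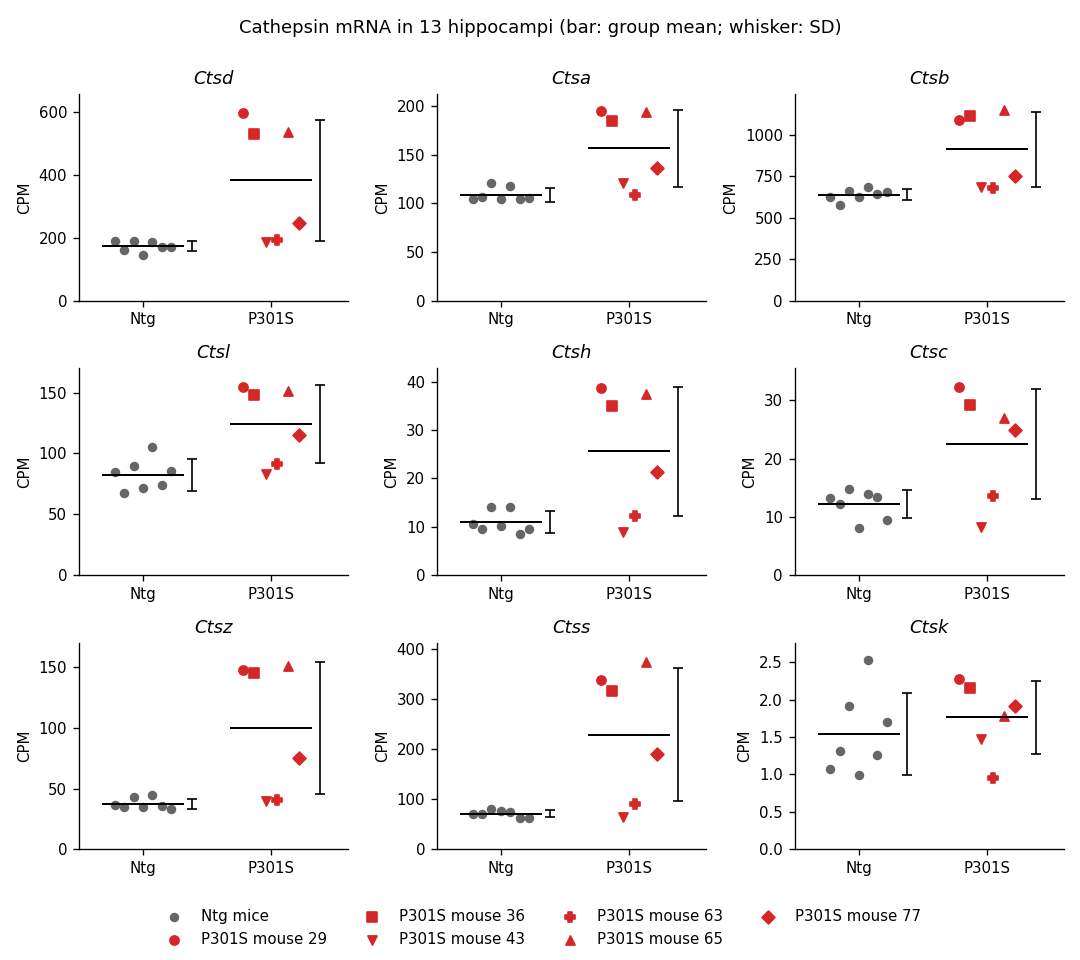
Normalised counts (CPM) of the 9 cathepsins in the hippocampi of 7 Ntg and 6 P301S mice, 1 panel per gene. Points are mice, bars the group mean and whiskers 1 SD, and in each panel except that of Ctsk the 3 highest P301S points are mice 29, 36 and 65 while the 2 lowest, mice 43 and 63, sit at or near the Ntg mice.

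The remaining members had lowest, median and highest levels as follows, none of them called. Ctsh had 8.54, 10.1 and 14.1 CPM in Ntg and 8.84, 28.1 and 38.7 CPM in P301S mice, with a log2 fold change of 1.22 ± 0.31 (SE, adjusted p = 0.0594). Ctsc had 8.15, 13.3 and 14.7 CPM in Ntg and 8.20, 25.9 and 32.3 CPM in P301S mice, a difference of 0.89 (standard error 0.26, adjusted p = 0.0995). For both, mice 43 and 63 lay inside the Ntg range. Ctsb, the most abundant member here in CPM, had 577, 643 and 682 CPM in Ntg and 681, 920.1 and 1147 CPM in P301S mice, with a log2 fold change of 0.52 ± 0.13 (SE, adjusted p = 0.0615). Ctsa went from 104, 106 and 121 CPM to 108, 160 and 195 CPM, with the same size of difference (0.52, standard error 0.13, adjusted p = 0.0615). Ctsl went from 67.1, 84.5 and 106 CPM to 83.2, 132 and 155 CPM (log2 fold change 0.59, standard error 0.16, adjusted p = 0.0701). Ctsk, at 0.995, 1.31 and 2.52 CPM in Ntg and 0.956, 1.85 and 2.28 CPM in P301S mice, was the only member whose P301S mice all lay below the highest Ntg mouse (log2 fold change 0.19, 95% interval -0.30 to 0.68). Of all genes tested 0.438% had all 6 P301S mice above all 7 Ntg mice, and 0 cathepsins did: 5 of 6 P301S mice stood above all Ntg mice for Ctsa, Ctsb, Ctsd and Ctss and 4 of 6 for Ctsc, Ctsh, Ctsl and Ctsz.

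The 3 calls rested on single mice. With 1 of the 13 mice left out, 0 members were called in 9 fits, namely without Ntg mouse 35, 46, 61, 62, 68 or 71 or without P301S mouse 29, 36 or 65. Without Ntg mouse 55 there were 2, without P301S mouse 77 there were 5, and without P301S mouse 43 or 63 there were 8. The log2 fold change of Ctss stayed between 1.48 and 1.88 in these fits (adjusted p 0.00133 to 0.0859), that of Ctsz between 1.25 and 1.58 (adjusted p 0.00333 to 0.104) and that of Ctsd between 0.97 and 1.28 (adjusted p 0.00680 to 0.126). DESeq2's Wald test called 8 members in the full set, all but Ctsk, and with sex as a covariate edgeR called 1 (Ctss). The count over all genes, 249 in the main fit, also changed with a mouse left out and with DESeq2. Those counts are given under the dependence on processing below. For the fit with sex as a covariate the count over all genes is not given here.

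The same mice were high for markers of microglia. Summed over the 9 genes, cathepsin levels were 1039.6 to 1243 CPM in Ntg mice, 2596, 2506 and 2619 CPM in P301S mice 29, 36 and 65, 1563 CPM in mouse 77 and 1199.97 and 1229.8 CPM in mice 43 and 63. The summed level of the 7 general microglial markers was 139 to 173 CPM in Ntg mice, 429.5, 446 and 430.1 CPM in mice 29, 36 and 65, 242 CPM in mouse 77, and 149.6 and 160.5 CPM in mice 43 and 63, both within the Ntg range. Of these 7 markers 3 were called higher in P301S mice, of 7 markers of homeostatic microglia 0 (summed level 185 to 224 CPM in Ntg and 171 to 331 CPM in P301S mice), and of 6 astrocyte markers 1 (3628 to 4411 against 3703 to 7389 CPM). In bulk tissue, more cells of a type and more RNA per cell cannot be told apart. With the mean of the 7 general markers as a covariate, 0 cathepsins were called, but only 8 genes in all were, against 249 without it. The log2 fold changes of Ctss, Ctsz and Ctsd were then 0.14, 0.09 and 0.06 (adjusted p = 0.999 for each). With the homeostatic markers as the covariate 2 cathepsins were called, and the count over all genes in that fit is not given here.

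**Figure D2:**
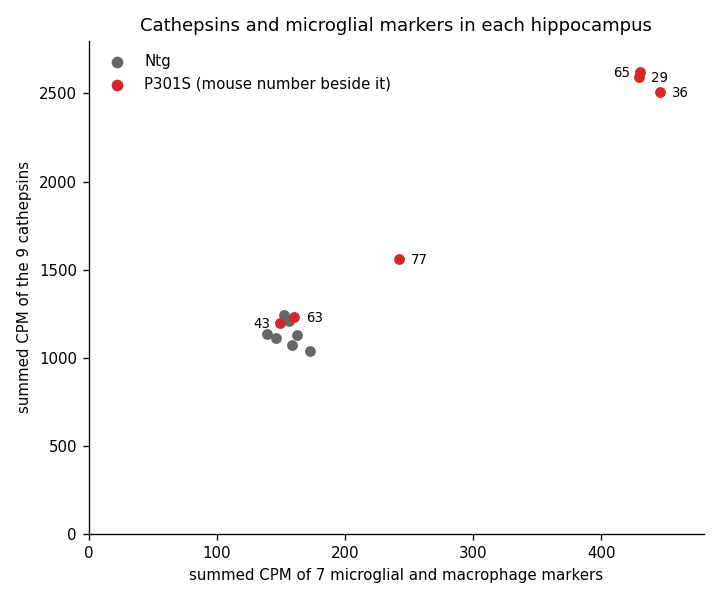
Summed level of the 9 cathepsins (vertical axis, CPM) against the summed level of 7 general markers of microglia and macrophages (horizontal axis, CPM) in 13 hippocampi. Each point is 1 mouse and P301S mice carry their number: mice 29, 36 and 65 lie together at the upper right, mouse 77 between, and mice 43 and 63 beside the Ntg mice.

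The 8 cathepsins other than Ctsk also varied together from mouse to mouse. Across the 13 hippocampi Pearson's r between pairs of them, on log2 CPM, was between 0.842 (Ctsb with Ctsc) and 0.988 (Ctsa with Ctsz), and with each group's mean removed between 0.745 and 0.976 for the same 2 pairs. Each value is a description over libraries of 1 tissue whose marker levels differ. Pairs with Ctsk had r between 0.518 and 0.694.

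Mice of both sexes were in each group. The difference of the genotype effect between males and females lay between -0.62 (Ctsk) and 0.30 (Ctsc) on the log2 scale, male minus female. No cathepsin was called by edgeR's interaction test (adjusted p 0.470 to 0.804), where the share of all 17242 genes tested was 0%, and 0 were past an unadjusted p of 0.05 or called by DESeq2. The intervals were wide: for Ctss the difference was -0.39 with a 95% interval of -1.76 to 0.97.

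In WT microglia tau fibrils raised Ctsc and lowered Ctsd, Ctsl and Ctsb by small amounts. Over all genes 28.0% were called in this comparison (15.8% higher, 12.2% lower), against 1 higher and 3 lower of the 9 members. How many of all genes had no overlap between groups of microglial libraries is not given here. Absence of overlap in this and the later microglial comparisons therefore only describes the libraries of the gene named. Ctsc, which activates granule serine proteases by removing dipeptides, had 505, 473 and 507 CPM with vehicle and 843, 771 and 842 CPM with tau. The groups did not overlap, and the log2 fold change was 0.73 ± 0.05 (SE, adjusted p = 7.87e-13), a 1.65-fold higher mean. Ctsd had 15207, 15471 and 14453 CPM with vehicle and 13099, 13193 and 12975 CPM with tau, a log2 fold change of -0.20 ± 0.03 (SE, adjusted p = 3.89e-05), again without overlap.

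Ctsl fell from 2909, 2834 and 2868 CPM to 2670.4, 2605 and 2617 CPM with tau (log2 fold change -0.13, standard error 0.04, adjusted p = 0.0163). Ctsb fell from 14302, 14066 and 13727 CPM to 13522, 12894 and 13246 CPM (log2 fold change -0.09, standard error 0.03, adjusted p = 0.0246). Neither pair of groups overlapped, but both calls depended on single libraries. The Ctsl call was lost without WT vehicle replicate 1 (adjusted p = 0.0585) or WT tau replicate 2 (0.0503) or 3 (0.0542), and the Ctsb call without WT vehicle replicate 1 (0.126) or 2 (0.0710), WT tau replicate 2 (0.119) or 3 (0.0607), or Cgas KO HT-DNA replicate 1 (0.0691). The calls for Ctsc and Ctsd held in all 18 fits that left out a library. Not called were Ctsa (-0.09, adjusted p = 0.0675), Ctsz (0.08, 0.0807), Ctsk (-0.30, 0.108), Ctss (0.06, 0.293) and Ctsh (-0.02, 0.822).

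After TMM scaling, HT-DNA raised 5 of the 9 cathepsins in WT microglia (Ctsc, Ctss, Ctsk, Ctsz and Ctsb) and lowered Ctsd, and for Ctsb and Ctsz the direction was the opposite in plain shares of the counted reads. Of all genes 47.4% were called (22.8% higher, 24.7% lower), and the median log2 fold change of the members was 0.11, against -0.03 over all genes. Ctsc rose to 926, 1015 and 1038 CPM, 2.01-fold over vehicle (log2 fold change 1.01, standard error 0.05, adjusted p = 2.08e-16). It was the only member also past a log2 fold change of 1, as 8.08% of all genes were. Ctss rose from 3788, 3685 and 3869.6 CPM with vehicle to 4389.7, 4549 and 4501 CPM, without overlap (log2 fold change 0.24, standard error 0.04, adjusted p = 6.95e-06).

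The scaling factors were 0.890 to 0.900 in these libraries and 1.03 to 1.05 with vehicle. As a share of counted reads the 9 genes together went from 4.16% with vehicle to 3.70% with HT-DNA (means of 3 libraries). Ctsb took 1.42% to 1.48% with vehicle and 1.34% to 1.37% with HT-DNA, and Ctsz 0.191% to 0.195% and 0.176% to 0.186%, both lower without overlap. Shares of Ctss overlapped (0.387% to 0.39999% and 0.395% to 0.405%), while those of Ctsc were higher with HT-DNA (0.0497% to 0.0524% and 0.0833% to 0.0929%) and those of Ctsd lower (1.49% to 1.63% and 1.21% to 1.25%). No test was run on shares.

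On the scaled level Ctsb was 14954, 15392 and 14971 CPM with HT-DNA, above all 3 vehicle libraries (log2 fold change 0.11, standard error 0.03, adjusted p = 0.00303). Ctsz went from 1816 to 1885 CPM with vehicle to 1960.4 to 2088 CPM (lowest and highest library), a log2 fold change of 0.13 ± 0.04 (SE, adjusted p = 0.00313). Ctsd had 13604, 14009 and 13565 CPM, below every vehicle library (log2 fold change -0.13, standard error 0.03, adjusted p = 0.00237). Ctsk rose from between 5.18 and 6.65 CPM to between 7.60 and 8.13 CPM (log2 fold change 0.39, standard error 0.13, adjusted p = 0.0141). Of these 6 calls only that of Ctsk was lost when a library was left out, without WT vehicle replicate 3 (adjusted p = 0.0830). Ctsl (0.07, adjusted p = 0.163), Ctsa (-0.03, 0.57) and Ctsh (-0.01, 0.903) were not called. Markers of other cells also moved: the summed level of 4 endothelial genes (Cldn5, Pecam1, Flt1 and Ly6a) was 87.3 to 98.8 CPM with vehicle, 99.96 to 124 CPM with tau and 276 to 280.3 CPM with HT-DNA, and that of 6 astrocyte genes 4.67 to 5.89, 8.60 to 10.6 and 10.6 to 13.7 CPM. Of the 4 endothelial genes 2 passed the filter, and both were called higher with HT-DNA in WT cells. In Cgas KO cells the endothelial sum was 20.7 to 24.9 CPM with vehicle and 24.4 to 28.3 CPM with HT-DNA. Whether these sums reflect other cells, and their part in the cathepsin differences, was not tested.

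**Figure D3:**
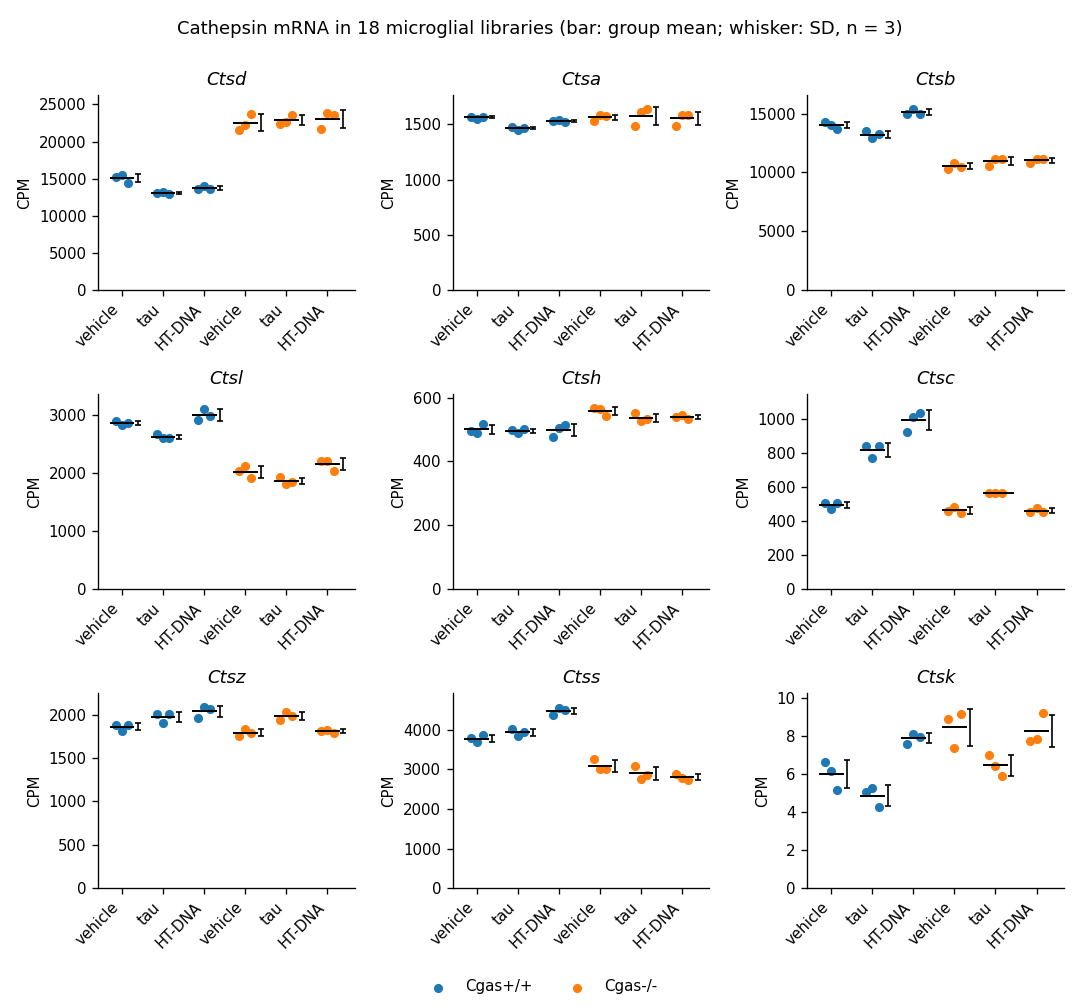
Normalised counts (CPM) of the 9 cathepsins in the 18 microglial libraries, 1 panel per gene, for WT and Cgas KO cells under each of the 3 conditions. Points are libraries (3 per group), bars the group mean and whiskers 1 SD, and the Ctsc panel shows WT libraries rising with tau and further with HT-DNA while Cgas KO libraries with HT-DNA stay at 452 to 479 CPM.

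The 2 stimuli were also compared with each other in WT cells. With tau 5 cathepsins were lower than with HT-DNA and 0 higher, where 34.9% of all genes were called (17.1% higher, 17.8% lower). Ctsk differed most (log2 difference -0.70 ± 0.14, SE, adjusted p = 0.000164), followed by Ctsc (-0.28, adjusted p = 1.92e-05). Ctsl (-0.19, adjusted p = 0.000271), Ctsb (-0.19, 4.39e-06) and Ctss (-0.19, 0.000419) differed less, and for these 5 genes every tau library lay below every HT-DNA library. Because both stimuli were compared with the same vehicle libraries, their separate fold changes are not independent.

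In Cgas KO microglia 0 cathepsins were called for HT-DNA in edgeR's fit of all 18 libraries, where 1.32% of all genes were called (1.04% higher, 0.278% lower). At an unadjusted p under 0.05 there were 3 members (Ctsb, Ctsl and Ctss) and 1688 genes in all. Replicate 1 of the Cgas KO HT-DNA group stood apart from its group. Over tested genes with at least 20 counts in a pair of libraries, the chi-square of counts was taken per degree of freedom. It was 22.4 for replicates 1 and 2, 28.1 for replicates 1 and 3, and 4.16 for replicates 2 and 3. Ctsc had 459, 483 and 446 CPM with vehicle and 452, 479 and 454 CPM with HT-DNA. These groups overlapped throughout, and the log2 fold change of 0.00 had a 95% interval of -0.09 to 0.09. Ctss went from 3271, 3024 and 2999.5 CPM to 2897, 2772 and 2744 CPM, a direction opposite to that in WT cells (log2 fold change -0.14, adjusted p = 0.0719). It was called by DESeq2 (adjusted p = 0.0111) and by edgeR with the replicate number as a block (0.0453), without the filter on low counts (0.00434), with the compared groups only (0.0347), and without Cgas KO tau replicate 1 (0.0253) or Cgas KO HT-DNA replicate 1 (0.0470).

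Tau still raised Ctsc in Cgas KO microglia, to 567, 566 and 564 CPM, above all 3 vehicle libraries. The log2 fold change was 0.29 ± 0.05 (SE, adjusted p = 2.06e-05), a 1.22-fold higher mean, and the call held in all 18 fits that left out a library. Ctsz rose as well (0.15, standard error 0.04, adjusted p = 0.00311), from 1749 to 1834 CPM to 1944 to 2026 CPM. Ctsk fell (-0.39, standard error 0.13, adjusted p = 0.0281) from 7.35 to 9.15 CPM to 5.91 to 7.01 CPM, and Ctsl (-0.12, standard error 0.04, adjusted p = 0.0356) from 2032, 2129.9 and 1919.9 CPM to 1932, 1822 and 1844 CPM, with overlapping groups. In all, 16.7% of genes were called (11.2% higher, 5.48% lower) and 2 cathepsins were higher and 2 lower. The Ctsk call was lost without Cgas KO vehicle replicate 1 (adjusted p = 0.105) or 3 (0.146) or Cgas KO tau replicate 2 (0.0695) or 3 (0.133), and the Ctsl call without Cgas KO vehicle replicate 1 (0.0924) or 2 (0.232) or Cgas KO tau replicate 2 (0.140) or 3 (0.113), or with the compared groups only (0.0515).

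**Figure D4:**
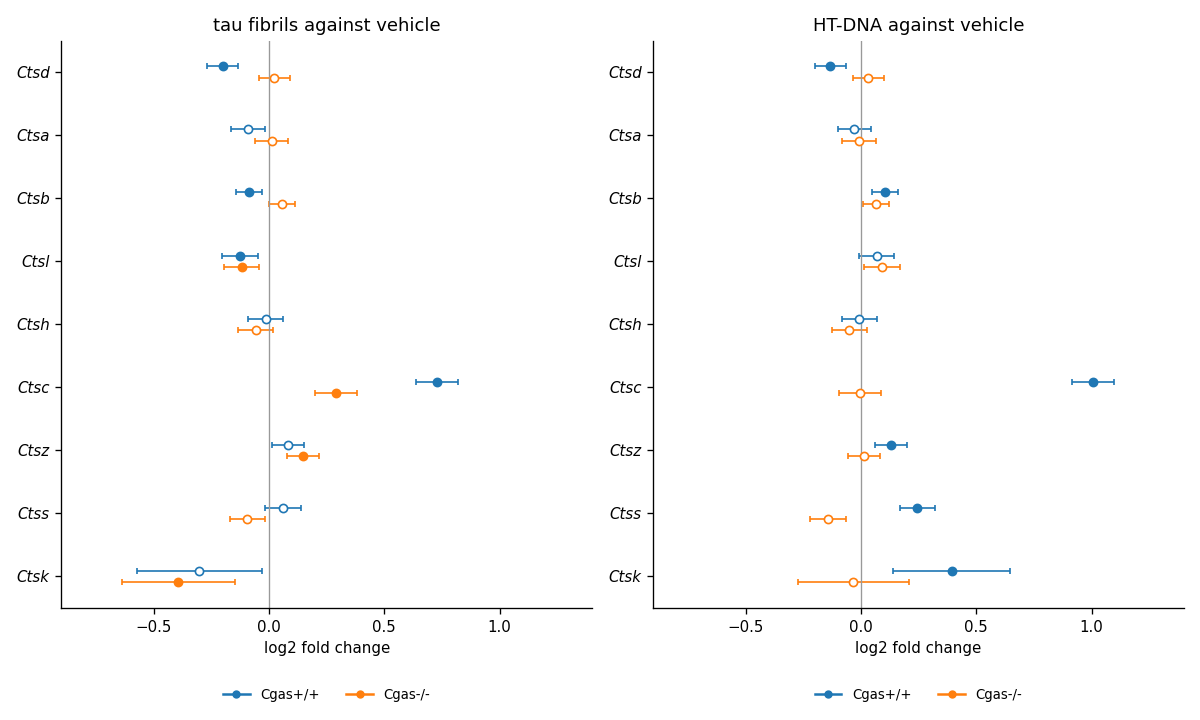
Log2 fold changes of the 9 cathepsins after tau or HT-DNA, relative to vehicle, for WT and for Cgas KO microglia. Dots are estimates, whiskers 95% intervals, filled dots have an adjusted p under 0.05 and open dots do not, and Ctsc lies at 0.73 and 1.01 in WT cells and at 0.29 and 0.00 in Cgas KO cells.

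The difference between genotypes in each response was tested as an interaction, given as the Cgas KO response minus the WT response. For HT-DNA it was called for Ctsc, Ctss and Ctsd (1 higher, 2 lower), where 34.0% of all genes were called (17.4% higher, 16.6% lower). The Ctsc response was lower in Cgas KO cells (-1.01, standard error 0.07, adjusted p = 1.85e-12), and Ctsc was the only member past a log2 difference of 1, as were 6.27% of all genes. For Ctss the difference was -0.39 (standard error 0.06, adjusted p = 2.28e-06). For Ctsd, which fell in WT cells and had a fitted change of 0.03 in Cgas KO cells, it was 0.16 (standard error 0.05, adjusted p = 0.00982), and this call was lost without WT tau replicate 1 (0.12, adjusted p = 0.0771), with the compared groups only (0.10, 0.102) and by DESeq2 (0.13, 0.058). Ctsk (-0.43, standard error 0.18) and Ctsz (-0.12, standard error 0.05) missed the threshold, with adjusted p of 0.0681 and 0.0774, and both were called with RLE scaling (0.0457 and 0.0229) and with the compared groups only (0.0420 and 0.00725).

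For tau the interaction was called for 3 members, Ctsc, Ctsd and Ctsb (2 higher, 1 lower), where 6.91% of all genes were called (3.61% higher, 3.31% lower). The Ctsc response to tau was lower in Cgas KO cells (-0.44, standard error 0.07, adjusted p = 5.44e-05), while Ctsd, with a fitted change of 0.02 in Cgas KO cells, differed the other way (0.22, standard error 0.05, adjusted p = 0.00414). Both held in all 18 fits. The Ctsb difference of 0.14 (standard error 0.04, adjusted p = 0.0273) was lost in 11 of 18, those without WT vehicle replicate 1 or 2, WT tau replicate 1, 2 or 3, WT HT-DNA replicate 3, Cgas KO vehicle replicate 1 or 3, Cgas KO tau replicate 2 or 3, or Cgas KO HT-DNA replicate 1 (adjusted p 0.00388 to 0.105 over all 18), and also with RLE scaling (0.0660) or the compared groups only (0.0655). The Ctss difference under tau was -0.15 (standard error 0.06, adjusted p = 0.102), called without the filter on low counts (0.0494) and by DESeq2 (0.0259).

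At rest the genotypes already differed. With vehicle, Cgas KO microglia had more Ctsd, Ctsk and Ctsh and less Ctsl, Ctsb and Ctss than WT microglia, where 52.0% of all genes were called (24.7% higher, 27.3% lower). Ctsd had 21585, 22281 and 23754 CPM in Cgas KO cells, above every WT library (log2 fold change 0.58, standard error 0.03, adjusted p = 5.10e-14). Ctsl was lower by 0.50 (log2 fold change -0.50, adjusted p = 1.87e-11) and Ctsb, at 10309.6, 10796 and 10457 CPM, by 0.42 (log2 fold change -0.42, adjusted p = 1.24e-12). Ctss was also lower (-0.29, adjusted p = 5.68e-07), and for these 3 genes every Cgas KO library lay below every WT library. Ctsk (0.49, adjusted p = 0.00197) and Ctsh (0.16, adjusted p = 0.00104) were higher without overlap. Ctsc (-0.10, adjusted p = 0.0829), Ctsz (-0.05, 0.208) and Ctsa (0.00, 0.998) were not called, the last with a 95% interval of -0.07 to 0.07.

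Under tau the Cgas KO cells differed from WT cells in 8 of 9 cathepsins, where 51.3% of all genes were called (25.2% higher, 26.2% lower). Ctsd (0.81, adjusted p = 6.68e-17), Ctsk (0.40, 0.0142), Ctsh (0.11, 0.0135) and Ctsa (0.10, 0.0207) were higher and Ctsc (-0.53, 1.17e-10), Ctsl (-0.50, 2.16e-11), Ctss (-0.44, 2.14e-10) and Ctsb (-0.27, 6.22e-09) lower. The calls of Ctsa, Ctsk and Ctsh were weak. That of Ctsa was lost without WT tau replicate 2 (adjusted p = 0.0584) or Cgas KO tau replicate 2 (0.0700) or 3 (0.121), with RLE scaling (0.0592) and with the compared groups only (0.0592), that of Ctsk without WT tau replicate 3 (0.0870) or Cgas KO tau replicate 1 (0.0623), and that of Ctsh without Cgas KO tau replicate 1 (0.0512). Ctsz differed by 0.01 with a 95% interval of -0.06 to 0.08.

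Under HT-DNA 7 cathepsins differed, 2 higher and 5 lower in Cgas KO cells, where 63.2% of all genes were called (33.1% higher, 30.1% lower). Ctsc was the member with the largest difference (-1.10, standard error 0.05, adjusted p = 5.62e-18) and the only one past a log2 difference of 1, as were 18.1% of all genes. Ctss (-0.68, adjusted p = 9.53e-15), Ctsl (-0.48, 1.99e-11), Ctsb (-0.46, 5.96e-14) and Ctsz (-0.17, 0.000144) were also lower, although the shares of counted reads of Ctsz overlapped (0.185% to 0.188% in Cgas KO and 0.176% to 0.186% in WT cells). Ctsd, at 21691, 23827 and 23623 CPM, was higher by 0.75 (adjusted p = 5.85e-17), and Ctsh was higher by 0.11 (adjusted p = 0.0108), a call lost without WT HT-DNA replicate 1 (0.0849) or Cgas KO HT-DNA replicate 1 (0.0769), with RLE scaling (0.0944) and with the compared groups only (0.109). In each of the 3 conditions Ctsd was higher and Ctsb, Ctsl and Ctss lower in Cgas KO cells, and these 12 calls held in all 18 fits that left out a library.

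**Figure D5:**
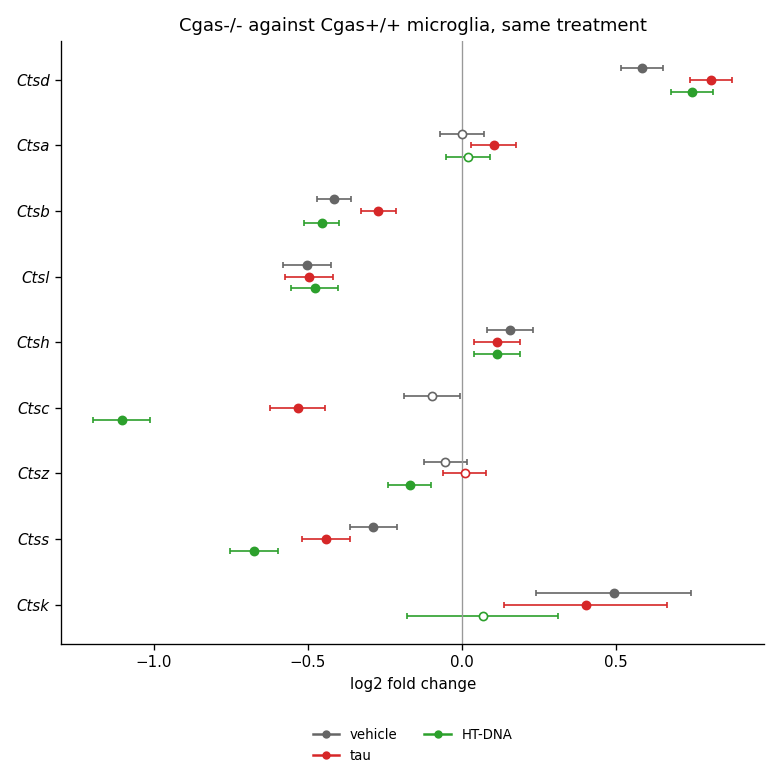
Log2 difference of the 9 cathepsins between Cgas KO and WT microglia (Cgas KO minus WT) with vehicle, tau fibrils or HT-DNA. Dots are estimates, whiskers 95% intervals, filled dots have an adjusted p under 0.05, and Ctsd lies to the right of 0 and Ctsb, Ctsl and Ctss to the left in all 3 conditions while Ctsc moves from -0.10 with vehicle to -1.10 with HT-DNA.

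Markers of cell identity moved with genotype as well. The summed level of 7 homeostatic microglial genes was 515 to 553 CPM in WT and 237 to 255 CPM in Cgas KO cells with vehicle, and that of the 7 general markers 4542 to 4719 CPM against 4163 to 4291 CPM. The endothelial genes summed to 87.3 to 98.8 CPM in WT and 20.7 to 24.9 CPM in Cgas KO cells, 5 oligodendrocyte genes to 84.4 to 95.2 against 51.6 to 54.5 CPM, and 5 fibroblast genes to 2.61 to 4.26 against 0.0521 to 0.220 CPM. Genes of border-associated macrophages, 5 in all, summed to 189 to 210 CPM in WT and 149 to 153 CPM in Cgas KO cells with vehicle. Of the 2 that were tested 1 was called lower in Cgas KO cells. The 6 neutrophil genes summed to 2.57 to 4.21 CPM in WT and 4.33 to 5.02 CPM in Cgas KO cells with vehicle. Among the neutrophil genes S100a9 and Retnlg were at 0 in all 18 libraries. The 1 neutrophil gene tested was called higher in Cgas KO cells with vehicle (0.45), tau (0.48) and HT-DNA (0.415). The part of all these markers in the cathepsin differences between genotypes was not tested.

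Other genes of the lysosome were counted in lists chosen with earlier results of these data known. In P301S hippocampi, where 1.51% of all genes were called, 2 of 10 cathepsin inhibitors tested were higher, the cystatin Cst7 (log2 fold change 5.90, standard error 0.85) and the serpin Serpina3n (1.76, standard error 0.38). Of 12 lysosomal membrane and accessory proteins Cd68 (1.90) and Grn (0.86) were higher, and of 2 antigen-processing partners both were, the invariant chain Cd74 (5.14) and the thiol reductase Ifi30 (1.45). Of 31 other lysosomal hydrolases 0 were called by edgeR, although 26 fitted differences were positive. In WT microglia, where 47.4% of all genes were called for HT-DNA and 28.0% for tau, HT-DNA raised 7 of 12 membrane and accessory proteins and lowered 2, with Scarb2 (0.49), Lamp2 (0.48), Npc2 (0.45) and Cd68 (0.35) changed most, and raised 9 and lowered 7 of 31 hydrolases. Tau raised 3 and lowered 12 of the hydrolases, with Sgsh (-0.77) and Pla2g15 (-0.46) lowest, and raised 3 of 4 lysosomal transcription factors, Tfec (0.56), Mitf (0.24) and Tfe3 (0.15). Among 4 other cathepsins and legumain tested, tau lowered Ctsf (-0.32) and Lgmn (-0.22), and HT-DNA lowered Ctsf (-0.33) and raised Ctso (0.28) and Lgmn (0.16).

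In Cgas KO microglia 0 genes of these lists were called for HT-DNA in edgeR's fit of all 18 libraries, where 1.32% of all genes were. The interaction of the HT-DNA response with Cgas, called for 34.0% of all genes, was lower for 6 of 12 membrane and accessory proteins, with Lamp2 (-0.50), Scarb2 (-0.46) and Npc2 (-0.42) furthest from 0, and higher for 2. Between genotypes with vehicle, where 52.0% of all genes were called, 4 hydrolases were higher and 20 lower of 31 in Cgas KO cells, among them Sgsh (-1.74), Arsb (-1.15), Ids (-1.14) and Man2b1 (-1.08), and all 4 of the other cathepsins and legumain tested were lower, Ctse by 0.88 (log2 fold change -0.88) and Lgmn by 0.74 (-0.74) at the far end. Of 19 genes of lysosomal acidification 9 were higher and 4 lower, led by the proton pump subunits Atp6v1c1 (0.70) and Atp6v0d2 (0.66). Of 8 cathepsin inhibitors tested 2 were higher, Serpinb1a (4.92) and Cst7 (1.65), and 4 lower, among them Serpina3n (-3.43) and Serpinb6b (-1.35), with a median of -0.19 over the list.

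The genes whose levels followed each cathepsin most closely differed between the experiments. Likeness was Pearson's r of log2 CPM among genes with a mean of at least 10 CPM, a description over libraries that fall into groups and differ in marker levels. Over the 13 hippocampi Ctss was nearest to C1qb (r = 0.995), Ly86 (0.992) and C1qa (0.991), and Ctsz to C1qa (0.993), Tyrobp (0.991) and Cd68 (0.991), all genes of microglia and macrophages. Ctsd was nearest to H2-Eb1 (0.990), H2-Aa (0.989) and Gm2a (0.988), Ctsb to Prdx6 (0.991), Ctsd (0.985) and Gusb (0.980), and Ctsl to Npc2 (0.987), Lap3 (0.978) and Lamp1 (0.974). Ctsa was nearest to Ctsz (0.988), Abhd4 (0.984) and C1qa (0.984), Ctsh to Ctsz (0.982), Ctss (0.980) and Arpc1b (0.979), and Ctsc to C3 (0.977), Nfe2l2 (0.977) and Ucp2 (0.975). Ctsk was nearest to genes of ribosomal proteins, Rps9 (0.936), Rps25 (0.871) and Rpl6 (0.864).

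Over the 18 microglial libraries Ctsc was nearest to Ripk2 (0.993), Cd274 (0.992) and Jak2 (0.991), of which Cd274 encodes the checkpoint ligand PD-L1 and Jak2 a kinase of cytokine receptors. Ctsd was nearest to Chchd10 (0.992), Pebp1 (0.988) and Pianp (0.988), Ctsb to Inpp5d (0.988), Plekhm1 (0.987) and Grn (0.986), Ctsl to Ncapg2 (0.988), Pitpnc1 (0.983) and Vim (0.982), and Ctss to Msrb1 (0.981), Akr1b3 (0.977) and Tlr9 (0.976). Ctsh was nearest to Rps16 (0.965) and Rpl31 (0.959), Ctsz to Eng (0.926), Lrrk2 (0.921) and Tnfsf8 (0.915), Ctsk to Lgals3 (0.912), Metrnl (0.896) and Ostm1 (0.896), and Ctsa to Timm29 (0.854), Fam76a (0.754) and Araf (0.748). Within the family, r over these libraries ranged from -0.944 for Ctsd with Ctss to 0.946 for Ctsb with Ctsl. With each group's mean removed these values were -0.623 and 0.0501.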

How the data were processed

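RNA-seq of 13 mouse hippocampi and 18 primary microglial libraries was used. The authors deposited raw read counts per Ensembl gene, 1 table per experiment, without normalization. Per the labels, RNA was isolated with a Zymo kit and libraries made with QuantSeq, which reads 3′ ends, whereas the methods name RNeasy columns for hippocampi. The submitters' processing notes name GRCm38, edgeR and limma, without roles. The aligner and counting tool are not given in the sources used here. Total counts were 25953296 to 35779977 per hippocampus and 17037459 to 25174764 per microglial library. Samples were grouped by their labels, and table columns were matched to samples by name.

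Counts were scaled with TMM and tested with the quasi-likelihood F test of edgeR 4.0.16 (R 4.3.3, limma 3.58.1) after filterByExpr, with Benjamini-Hochberg adjustment over all 16453 or 13675 genes tested (17242 in the model with sex). The 18 microglial libraries were fitted together. Intervals are 1.96 standard errors on either side. CPM are counts relative to the effective library size after TMM. Scripts were tested on simulated data. All 9 members are named in every comparison. Of other lysosomal lists at most 4 genes with the largest change among those called are named, and for likeness the 3 genes with the highest r. The members and lists were chosen with earlier results of these data known. Gene positions and exon lengths are from the GENCODE M21 annotation and promoter windows from RefSeq (GRCm38.p6). Alternatives were RLE scaling, DESeq2 1.42.0, no filter on low counts, marker or sex covariates, a replicate block, fits of the compared groups only, an added minimum fold change, and leaving out each library. One gene that the rule for genes most like each member would name is not reported here.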

Additional observations from a re-analysis of the deposited data

Results flagged for a closer look

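Of 27 interaction tests over the 9 cathepsins, 6 passed an adjusted p of 0.05 in edgeR's test. They asked whether the P301S effect differed between male and female mice, or a response between WT and Cgas KO microglia. Direct comparisons of the genotypes are not among them. All 6 were differences between genotypes in a response to a stimulus (Cgas KO response minus WT response, log2 scale). For sex by genotype 0% of all genes were called. For HT-DNA the members called were Ctsc (-1.01), Ctss (-0.39) and Ctsd (0.16), where 34.0% of all genes were called. For tau fibrils they were Ctsc (-0.44), Ctsd (0.22) and Ctsb (0.14), where 6.91% of all genes were called. The Ctsb and the HT-DNA Ctsd differences were lost in some fits that left out a library or changed the processing, as given with each value above. Both stimuli were compared with the same vehicle libraries, so the tau and HT-DNA values of a gene are not independent. Within the 7 Ntg and the 6 P301S mice no mouse stood apart from the others for any cathepsin by Dixon's test (0 of 18 tests past the 95% critical value), which does not detect an upper cluster of several mice. Groups of 3 were not tested this way.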

How the results depend on the processing

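Apart from fits that left out a library, 462 values of single cathepsins kept their direction and their side of the threshold, 29 gained a call, 15 lost one and 25 changed sign, none of these 25 called. Between TMM, RLE and DESeq2 scaling the median of all genes moved by less than 0.1 on the log2 scale in every comparison. Each of these methods places the typical gene near 0, so this does not show how far scaled levels depart from plain shares. For HT-DNA in WT cells the directions of Ctsb and Ctsz differed between scaled levels and plain shares, as given above. In P301S hippocampi the number of cathepsins called went from 3 to 1 with sex as a covariate, to 0 with the general microglial markers as a covariate (8 genes in all against 249), to 8 with DESeq2 (975 genes) and to between 0 and 8 with a mouse left out (14 to 946 genes). The count over all genes with sex as a covariate is not given here. With the general markers Ctsc (-0.080), Ctsh (-0.063) and Ctsk (-0.24) turned negative. For sex by genotype the count stayed at 0, while all genes called went from 0 to 58 without the filter, 1083 with DESeq2 and up to 1566 with a mouse left out.

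In microglia the minimum fold change left 0 calls of cathepsins for tau in WT cells, tau against HT-DNA, tau in Cgas KO cells, and Cgas KO against WT cells with vehicle or tau, 0 for the tau interaction, and 1 (Ctsc) for HT-DNA in WT cells, Cgas KO against WT cells with HT-DNA, and the HT-DNA interaction. For all genes it left 467 of 3829 for tau and 1105 of 6488 for HT-DNA in WT cells, 447 of 4768 for tau against HT-DNA, 374 of 2282 for tau and 3 of 180 for HT-DNA in Cgas KO cells, 1365 of 7110, 1421 of 7022 and 2482 of 8646 between genotypes (vehicle, tau, HT-DNA), and 132 of 945 and 857 of 4648 for the tau and HT-DNA interactions. For HT-DNA in Cgas KO cells 1 cathepsin (Ctss) was called without the filter on low counts (312 genes in all), with the replicate block, with the compared groups only and with DESeq2. The HT-DNA interaction was called for 5 with RLE scaling, Ctsk and Ctsz being added, and for 5 with the compared groups only, where Ctsb, Ctsk and Ctsz were added and Ctsd was lost. The cause of these changes was not tested. Counts over all genes are not given for these interaction fits or for the fits below that left out a library. Whether the changes were particular to cathepsins cannot be read from the member counts alone. Leaving out a library gave 2 to 5 calls for tau and 5 to 7 for HT-DNA in WT cells, 5 to 7 for tau against HT-DNA, 2 to 6 for tau and 0 to 1 for HT-DNA in Cgas KO cells, 6 to 7, 6 to 8 and 6 to 7 between genotypes (vehicle, tau, HT-DNA), and 2 to 4 and 3 to 4 for the tau and HT-DNA interactions.

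In microglia these values changed sign. With RLE scaling they were, for HT-DNA in WT cells, Ctsa 0.0059 and Ctsh 0.027, between genotypes Ctsa -0.0024 (vehicle), Ctsz -0.0086 (tau) and Ctsa -0.0201 (HT-DNA), and in the interactions Ctsl -0.009 (tau), Ctsa -0.0177 and Ctsl -0.0139 (HT-DNA). With DESeq2 the same 8 values were 0.0055, 0.0269, -0.0019, -0.0077, -0.0185, -0.0086, -0.0167 and -0.0129. With the replicate block it was Ctsa between genotypes with vehicle (-0.0002). With the compared groups only they were Ctsh 0.0101 (HT-DNA, WT), Ctsa -0.0019 (tau, Cgas KO) and -0.0206 (genotypes with HT-DNA), and in the HT-DNA interaction Ctsa -0.041 and Ctsl -0.0368. With a library or mouse left out, values crossed 0 within these ranges: sex by genotype, Ctsc -0.0864 to 0.5699 and Ctsd -0.9186 to 0.0018, tau in WT cells, Ctsh -0.0314 to 0.0059, HT-DNA in WT cells, Ctsa -0.0348 to 0.0111 and Ctsh -0.0274 to 0.0322, and tau against HT-DNA, Ctsh -0.0390 to 0.0166. In Cgas KO cells they were, for tau, Ctsa -0.0157 to 0.0535 and Ctsd -0.0070 to 0.0633, and for HT-DNA, Ctsa -0.0253 to 0.0074, Ctsc -0.0292 to 0.0299, Ctsk -0.1224 to 0.0327 and Ctsz -0.0021 to 0.0329. Between genotypes they were Ctsa -0.0069 to 0.0283 (vehicle), Ctsz -0.0145 to 0.0264 (tau), Ctsa -0.0016 to 0.0249 and Ctsk -0.0185 to 0.1136 (HT-DNA), and in the interactions Ctsl -0.0305 to 0.0446 (tau), Ctsa -0.0296 to 0.0306 and Ctsl -0.0474 to 0.0628 (HT-DNA).

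Replicate numbers did not pair the microglial libraries: deviations of same-numbered libraries from their group means correlated between -0.109 and 0.121, and 5 of 18 libraries matched their own number best. With the replicate number as a block Ctss was called for HT-DNA in Cgas KO cells (-0.14, adjusted p = 0.0453). Every cathepsin had at least 82 counts in every microglial library and at least 29 in every hippocampus.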
